A study of Mus musculus with 118 samples.

Results

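The nuclear genes of the mitochondrial respiratory chain were described in single cells labelled by somatostatin (SOM) in mouse neocortex. The rule took every gene of the count table whose symbol begins with Nduf, Uqcr, Sdh or Atp5, or with Cox followed by 4 to 8, which gave 94 of 23998 gene symbols, or 0.392%. By complex, 43 of them were placed in I, 6 in II, 8 in III, 20 in IV and 17 in V. Of the 94, 9 were classed as assembly factors. Atp5s and Atp5sl in complex V, and Cox7a2l and Ndufa4l2 in complex IV, were classed as related genes and not as subunits. Atp5sl stands in GENCODE M21 as Dmac2, and its place in complex V rests on the symbol alone. Of the 94 genes, 80 passed a filter of at least 32 counts in at least 10 cells, as did 9993 genes in all.

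The cells came from adult SOM-Cre/Ai9 mice, in which Cre driven by the Sst gene switches on the red reporter tdTomato, so that a cell that expressed Sst only earlier in life is also labelled. The method was Patch-seq: a cell is recorded with a patch pipette, its contents are then sucked into that pipette, and the RNA is made into a cDNA library. The cells kept were 42 in layer 4 (L4) of primary visual cortex (V1), 34 in L4 of primary somatosensory cortex (S1), 17 in layer 5 (L5) of V1 and 16 in L5 of S1. The other 9 cells were left out, 4 of them because fewer than 1500 genes were detected, 1 because its Slc17a7 count was above the sum of Gad1 and Gad2, and 4 because Sst had no count. All 9 genes of the SOM interneuron list passed the filter, but Sst, Gad1 and Gad2 among them were part of the rule that chose the cells. Of the 7 microglia genes 6 passed as well, and of the 7 genes of the fast-spiking PV interneuron list 5. Passing the filter therefore does not identify the cells. Total counts per kept cell ranged from 97904 to 3295232. RNA of other cells was present: the listed markers, summed in CPM (a count scaled to a fixed library total of 1e6), reached 10321.7 for astrocytes, 3283.8 for microglia and 9701.9 for oligodendrocytes in single cells, while 20, 33 and 16 kept cells had no count of these lists. Animals are not named in the labels. Each combination of area and layer therefore counts as 1 sample, no test between groups was possible, and the spread over recording days, taken from the dates in the labels, stands in for an error.

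The respiratory chain passes electrons from NADH through complex I, or from succinate through complex II, to complex III, cytochrome c and complex IV, which reduces oxygen. Complexes I, III and IV pump protons across the inner mitochondrial membrane, and complex V, the ATP synthase, uses the gradient to make ATP. Neurons depend on this ATP for ion pumping and transmission. A few subunits are encoded by mitochondrial DNA; these were not analysed here, and the values below are those of the nuclear genes.

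Promoters of 78 of the 94 genes were found in RefSeq (GRCm38.p6), each covering 250 bases before and 50 bases after the annotated start. Because the levels of the genes went together from cell to cell (below), the promoters were searched on both strands for the short motifs of factors known to act on such genes. The letters GCGCATGCG, a site of nuclear respiratory factor 1 (NRF1), stood in 10 of the 78 promoters (12.8%) and in 1.81% of 27025 promoters of all genes. The ETS letters CCGGAAG, bound among others by GABP, stood in 18 (23.1%), against 9.12% of all. The YY1 letters AAGATGGC stood in 10 (12.8%) against 2.88%, and the letters TCAAGGTCA of estrogen-related receptors in 2 (2.6%) against 0.41%. A match describes the letters only. One gene of each complex with such a match is shown over the 200 bases before its start, in lower case from 5′ to 3′, with the matches in capitals. Where the NRF1 letters matched on both strands at neighbouring positions, the capitals cover both.
Ndufa11 (complex I, chr17:56717562-56717761, plus strand): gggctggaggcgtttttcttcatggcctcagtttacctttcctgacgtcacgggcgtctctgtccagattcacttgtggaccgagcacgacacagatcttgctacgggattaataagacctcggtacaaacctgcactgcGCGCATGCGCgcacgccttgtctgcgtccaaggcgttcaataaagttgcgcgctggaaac
Sdhd (complex II, chr9:50603850-50604049, minus strand): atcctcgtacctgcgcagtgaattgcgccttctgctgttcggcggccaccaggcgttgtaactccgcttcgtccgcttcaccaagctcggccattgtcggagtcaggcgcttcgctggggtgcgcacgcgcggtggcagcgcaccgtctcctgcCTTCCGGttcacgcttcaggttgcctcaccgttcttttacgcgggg
Uqcrh (complex III, chr4:116075071-116075270, minus strand): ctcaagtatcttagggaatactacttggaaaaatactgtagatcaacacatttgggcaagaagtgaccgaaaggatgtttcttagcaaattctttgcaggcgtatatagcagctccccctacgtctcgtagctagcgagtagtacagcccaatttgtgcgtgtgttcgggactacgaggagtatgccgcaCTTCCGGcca
Cox6a1 (complex IV, chr5:115348959-115349158, minus strand): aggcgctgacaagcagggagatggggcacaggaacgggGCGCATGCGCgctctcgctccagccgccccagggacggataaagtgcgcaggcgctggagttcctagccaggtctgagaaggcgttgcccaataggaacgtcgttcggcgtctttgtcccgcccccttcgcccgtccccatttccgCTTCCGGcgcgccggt
Atp5h (complex V, chr11:115419920-115420119, minus strand): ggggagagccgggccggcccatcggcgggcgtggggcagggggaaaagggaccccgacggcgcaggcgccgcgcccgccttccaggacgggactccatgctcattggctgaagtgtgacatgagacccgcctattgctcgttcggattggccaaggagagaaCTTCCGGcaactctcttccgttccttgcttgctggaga
In the first sequence the capitals mark NRF1 letters, in the second, the third and the last the ETS letters on the reverse strand, and in Cox6a1 both kinds.

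The 94 genes took 1903458 of the 139840250 counts of all kept cells, or 1.36%. Complex V supplied 38.3% of these counts, complex I 29.7%, complex IV 13.8%, complex III 10.5% and complex II 7.75%. Levels between genes were compared on the deposited RPKM values, in which counts are divided by transcript length and by library size. The 74 subunits that are not tissue isoforms had a median of the mean RPKM of 126.4, the 9 assembly factors of 23.96, and all genes past the filter of 16.28. Genes that build the enzymes were thus listed at a higher level per length than those that only assemble them, and the lowest assembly factor, Sdhaf1, was at 11.29 RPKM.

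In complex V the highest mean levels were those of Atp5b and Atp5a1, the beta and alpha subunits of the catalytic head, at 903.8 and 472.4 RPKM, followed by Atp5c1, the gamma subunit of the central stalk, at 363.1. Atp5a1 was the only one of the 94 genes with a count in every kept cell. In complex IV the highest were Cox4i1 (551.2 RPKM), Ndufa4 (440.6) and Cox5a (353.4). Ndufa4 was first assigned to complex I and is now counted as a subunit of complex IV, as was done here. In complex III the core protein gene Uqcrc1 led at 276.2 RPKM, before the hinge protein gene Uqcrh (225.9) and the second core protein gene Uqcrc2 (173.3). In complex II, which is succinate dehydrogenase, the iron-sulfur subunit Sdhb was at 247.6, the flavoprotein Sdha at 149.2 and the membrane anchor Sdhd at 102.5. In complex I the highest were the accessory subunits Ndufb9 (227.8) and Ndufb8 (214.6) and the core subunit Ndufs7 (212.1). The 7 core subunits of complex I, which carry the redox centres, had a median of 126.8 RPKM, with Ndufv1 at 157.5 and Ndufs1 at 84.14, and the 29 accessory subunits one of 93.79.

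**Figure D1:**
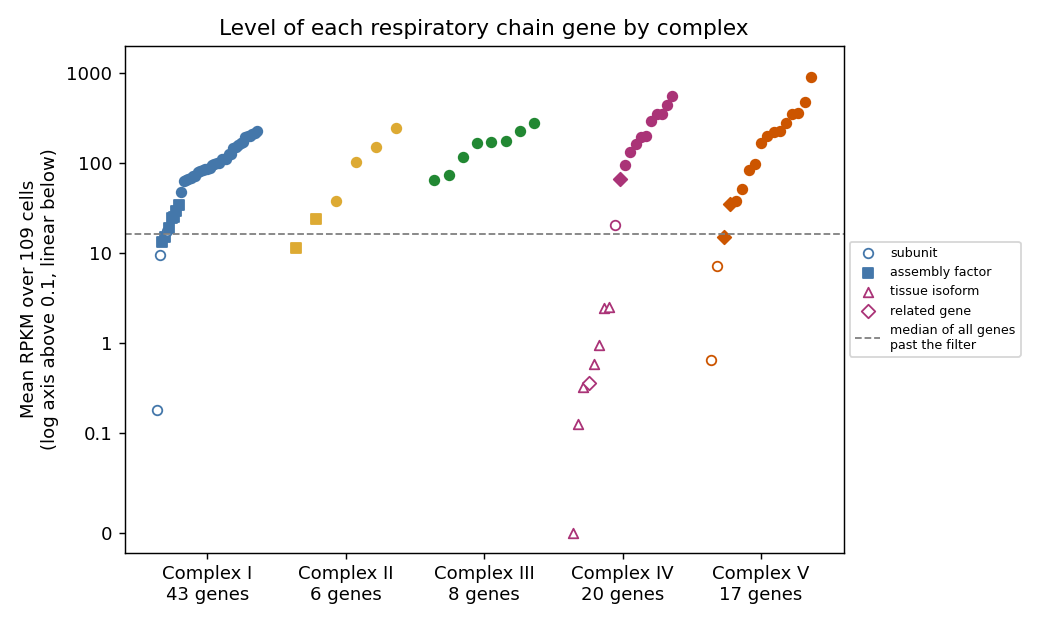
Mean deposited RPKM over the kept cells for each of the 94 genes, by complex, on a log axis above 0.1 and a linear one below. Each point is a gene, the shape gives its class, open symbols did not pass the filter, and the dashed line is the median of all genes past it, 16.28. The tissue isoforms of complex IV lie at 2.512 or below, and Atp5b is highest at 903.8.

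Complex IV has subunits with separate genes for most tissues and for muscle, lung or germ cells, and the SOM+ cells used the general form of each pair. Cox4i1 had 59955 counts and was missed in 4 of the kept cells, while Cox4i2, its hypoxia-responsive partner known from lung, had 14 counts in 3 cells. Cox6a1 had 14270 counts, with none in 6 cells, and its heart and muscle form Cox6a2 97 counts in 7 cells. Cox6b1 was at a mean of 289.6 RPKM and Cox6b2, known from testis, at 2.467. Cox7a2 had 17598 and Cox7a1, known from heart and muscle, 69. Cox8a had 25853 counts and Cox8b 5, and Cox8c had no count in any kept cell. All 7 tissue isoforms failed the filter, and so did Ndufa4l2, a relative of Ndufa4 known for its induction by hypoxia, with 47 counts in 5 cells against 32296 of Ndufa4, which 4 cells lacked. In every one of the 4 groups the general form of each of these pairs had over 100 RPKM and the other form under 11.

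The 3 genes Atp5g1, Atp5g2 and Atp5g3 encode one and the same mature c subunit of the ATP synthase ring behind different import sequences. Atp5g3 was at 350.9 RPKM, Atp5g1 at 51.38 and Atp5g2 at 0.6364, with 55 counts in 20 cells. Atp5g2 is one of 6 general subunits that failed the filter, with Atp5l (433 counts in 84 cells), Cox7c (1164 counts in 95 cells), Ndufab1 (1154 counts in 84 cells), Ndufb4 (1170 counts in 83 cells) and Ndufs5 (1 count). All 6 have an annotated pseudogene with at least 95% identity over at least 75 bases, as do 16 of the 68 general subunits that passed. Reads that fit a gene and its copy alike could be dropped or shared, and how the deposited counts treat them is not given in the sources used here, so the low values of these 6 genes are uncertain. Such a copy went with high values too: Atp5h, with 4 near-identical pseudogenes, was at 166.2 RPKM, and Atp5o, with 1, at 219.0.

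The share of a cell's counts taken by the 94 genes varied more within groups than between them. In V1 L4 it was 0.304% at the lowest, 0.951% at the median and 2.28% at the highest of 42 cells. In S1 L4 the 3 values were 0.375%, 1.16% and 2.27% over 34 cells. In V1 L5 they were 0.562%, 1.66% and 2.72% over 17 cells, and in S1 L5 0.404%, 1.35% and 2.26% over 16 cells. The ranges of all groups overlapped, and the SD over cells lay between 0.516 and 0.593 percentage points in each. With the counts of all cells of a group added up, the share in L5 was 1.664% for V1 (exact 95% binomial interval 1.659% to 1.67%) and 1.444% for S1 (1.439% to 1.45%). In L4 it was 1.219% for V1 (1.216% to 1.222%) and 1.363% for S1 (1.36% to 1.366%). These intervals cover counting error only and not the spread between cells. The median L4 cell had counts for 70 of the 94 genes in V1 and for 76.5 in S1, and the median L5 cell for 80 and 79.5. With every cell thinned to 250000 reads, which left out 3 shallower cells, all of L5, these medians were 66, 69.5, 77 and 77. A cell with a low share of these genes and one with less RNA captured per cell cannot be told apart in such data.

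**Figure D2:**
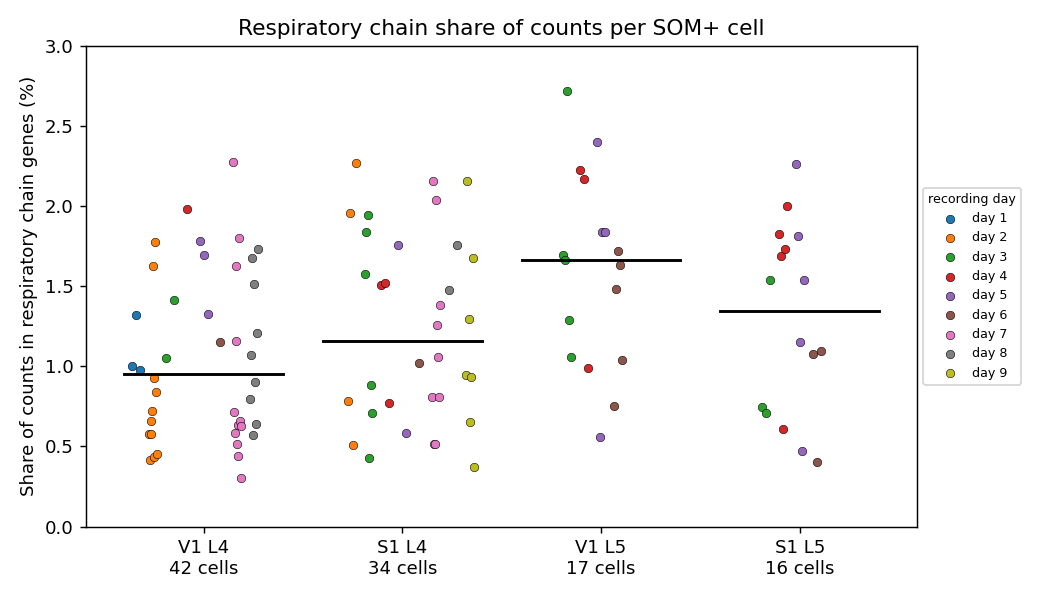
Share of each cell's counts in the 94 genes, in percent, by area and layer. Each point is a cell, the colour and the horizontal offset give the recording day, and the black line is the group median, from 0.951% in V1 L4 to 1.66% in V1 L5. The cells of each group spread over most of the axis, and the days within a group differ.

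Recording days differed as much as areas and layers. In V1 L4 the day medians ran from 0.649% in the 12 cells of day 7 and 0.662% in the 11 cells of day 2 to 1.69% in the 3 cells of day 5 and 1.98% in the only cell of day 4. In S1 L4 they ran from 0.946% to 1.62%, in V1 L5 from 1.48% to 2.17%, and in S1 L5 from 0.746% to 1.73%. Area and layer were therefore compared over all cells and also within each day that held at least 2 cells of both groups.

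Between the areas in L4, the 80 genes past the filter did not differ in one direction beyond the spread over days. By the mean of log2(CPM + 1), 52 genes were higher in S1 and 28 lower, with a median difference of 0.20 on the log2 scale, beside 0.01 for all genes. The day medians of the 80 differences were 0.50, -0.60, -1.39, 0.83 and 1.02, or 0.07 ± 1.03 (SD over 5 days). The share was higher in S1 by 0.181 percentage points over all cells and by 0.17 ± 0.404 (SD over 5 days) within days, with the higher mean in S1 in 3 of 5 days. Without day 2 the former was 0.0783. The oligodendrocyte list was higher in S1 L4, with a median of 644.0 CPM (0 to 9701.9) against 160.2 (0 to 3716.6), and so was the fast-spiking PV interneuron list, at 672.8 (0 to 1812.4) against 475.4 CPM (96.18 to 1584.0), with Pvalb at 1.52 on the log2 scale. The nuclear long RNA list, described below, had a median of 37936.4 CPM in S1 and 43328.0 in V1. Their part in the result was not tested. The CPM ranges of the 2 areas overlapped for all 80 genes. Many of these genes had cells without a count in both areas, which makes overlap hard to avoid. The overlap over all genes is not given here, so this says nothing particular about the respiratory chain.

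Of the 80 genes, 4 were higher in S1 L4 by at least 1 on the log2 scale, beside 7.64% of all genes, and 0 were lower by as much, beside 7.29%. They were Uqcrc1, Uqcrfs1, Uqcrc2 and Ndufs7, named after their values were seen, and the first 3 belong to complex III. Over its 8 genes complex III had a median of 0.20, with Uqcr11 at -0.71 and Uqcrh at -0.39, and the medians of complexes I, II, IV and V were 0.12, 0.36, 0.26 and 0.39. Uqcrc1 was at 0, 260.5 and 1143.5 CPM (lowest, median and highest) in V1 L4 and at 2.0, 429.1 and 2504.8 CPM in S1 L4. Its mean log2 level was higher in S1 in each of 5 days, by 0.20 to 2.99, which gave 1.29 over all cells and 1.81 ± 1.32 within days. It was the only one of the 80 genes with the same sign in every day, where 6.51% of all genes had one. Uqcrfs1, the Rieske iron-sulfur protein, was at medians of 154.3 CPM in V1 and 240.7 in S1, and its difference of 1.27 came with days from -2.45 to 1.85. For Uqcrc2 the difference was 1.09 and for the complex I core subunit Ndufs7 1.06, each with at least 1 day of the opposite sign. Of the catalytic subunits of complex V, Atp5a1 differed by 0.71 and Atp5b by 0.63, each positive in 4 of 5 days. Cox4i1 differed by 0.05 and Sdhb by -0.14.

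In L5 most of the genes were lower in S1 than in V1. Of the 80 genes 58 had the lower mean log2 level in S1 and 22 the higher, and the median difference was -0.44, where all genes had a median of 0.22. The day medians were -0.64, -0.03, -0.03 and -0.89, or -0.40 ± 0.437 (SD over 4 days). The share was lower in S1 in each of the 4 days: the medians in S1 and V1 were 0.746% and 1.66% on day 3, 1.73% and 2.17% on day 4, 1.54% and 1.84% on day 5, and 1.08% and 1.48% on day 6. The difference of mean shares was -0.30 percentage points over all cells and -0.397 ± 0.225 (SD over 4 days) within days. By the log2 means complex II stood lowest, with all 6 genes lower in S1 and a median of -1.01. The medians were -0.57 for complex V (12 of 15 lower) and -0.44 for complex I (25 of 40). They were -0.42 for complex IV (10 of 11) and -0.35 for complex III (5 of 8). The median cell differed from this. Its complex II share was 0.1066% in S1 and 0.09814% in V1, although the mean share was lower in S1 (0.08864% against 0.1225%). For complex III the median shares were 0.1554% in S1 and 0.1448% in V1. Those of complexes I, IV and V were lower in S1.

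Nuclear RNA differed in the opposite direction. The summed CPM of 6 long RNAs that stay in the nucleus, Malat1 and Meg3 among them, had a median of 18042.8 in V1 L5 (485.3 to 67496.7) and of 46637.2 in S1 L5 (7599.3 to 85976.6), and on each of the 4 days the median was higher in S1. Malat1 alone took 0.866% of counts in the median V1 L5 cell and 1.71% in S1 L5. On day 5 the medians of the list were close, at 17194.1 CPM in V1 and 18949.7 in S1. The share was also taken as its residual on the log2 level of this list, fitted over all kept cells. The difference S1 minus V1 in L5 was then 0.0125 percentage points over all cells and -0.0398 ± 0.482 within days, where the SD without the fit was 0.225. The fit was chosen after seeing the data, and list and share are parts of the same total counts. The part of nuclear RNA in the difference was not tested. The oligodendrocyte list was also higher in S1 L5 (median 321.9 CPM, up to 5590.8, against 170.6, up to 3869.8) and the microglia list lower at its maximum (725.2 against 3283.8 CPM). Their part in the result was not tested.

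Of the 80 genes, 8 were lower in S1 L5 by at least 1 on the log2 scale, beside 8.96% of all genes, and 6 were higher by as much, beside 21.6%. The same sign in every day was found for 15 genes, 11 lower and 4 higher, beside 14% of all genes. This is not far above the share of all genes, so the genes named here and below are listed as a description only. Among those 15 the largest differences down were in Ndufaf2, an assembly factor of complex I, and in Sdhc and Sdhd, the membrane anchors of complex II. Ndufaf2 was counted in 12 of 17 V1 cells, with a median of 17.31 CPM and a maximum of 105.2, and in 6 of 16 S1 cells, with a median of 0 and a maximum of 76.13. Its difference was -1.95, with days from -3.64 to -0.47. Sdhd was counted in 16 of 17 V1 and 11 of 16 S1 cells, at 0, 120.2 and 377.9 CPM in V1 and at 0, 110.6 and 292.6 in S1. Its difference was -1.37, with days from -2.74 to -0.68, so that it lay mostly in the cells with no count. Sdhc was at medians of 36.93 CPM in V1 and 25.38 in S1, with a difference of -1.37 and days from -2.48 to -0.09. Sdhb had the larger difference of -1.55 but was higher in S1 by 0.35 on day 4.

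Other subunits that were lower in S1 L5 on all 4 days were Cox7b (-1.29), Uqcr10 (-0.82), Cox5a (-0.76), Cox5b (-0.63), Ndufv3 (-0.61), Atp5j (-0.58), Ndufa2 (-0.52) and Atp5g1 (-0.29). These sit in complexes I, III, IV and V. The 3 largest differences up with the same sign each day were those of Ndufa8 (1.50), an accessory subunit of complex I, Ndufaf5 (1.17), an assembly factor of complex I, and Uqcrfs1 (1.17). Ndufaf5 was the steadiest over days, at 0.88, 0.97, 1.41 and 1.34, with a median of 26.62 CPM in V1 and 78.07 in S1. Atp5g3 was also higher on all 4 days by its log2 mean (0.58), although its median was lower in S1, at 243.7 against 302.0 CPM, since 2 V1 cells had no count. With cells thinned its difference was -0.38.

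**Figure D3:**
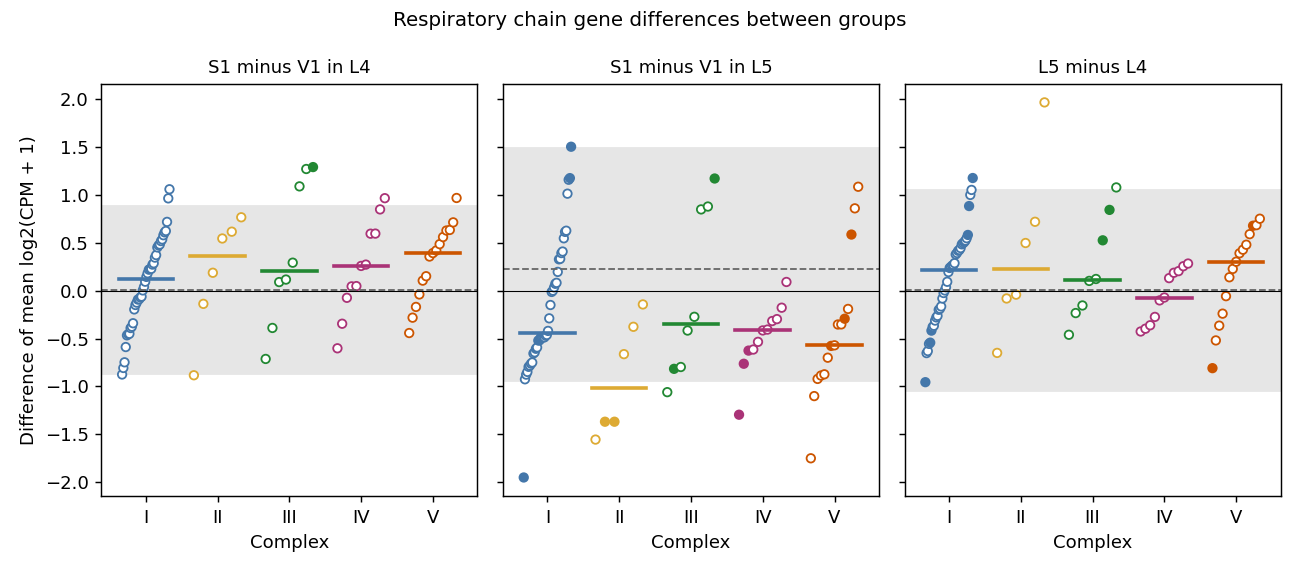
Difference of mean log2(CPM + 1) for the 80 genes past the filter in the 3 comparisons, by complex. Each point is a gene, filled where the sign was the same on every recording day, the coloured bars are medians per complex, and the dashed line and the grey band are the median and the 10th to 90th percentile of all 9993 genes. In L5 all 6 complex II genes lie below 0, while in the other panels the points scatter around the line of all genes.

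The layers were compared over the days 3 to 6, which held L5 cells, with 33 L5 and 19 L4 cells of both areas. These L5 and L4 cells are part of those compared between areas above, so the comparisons are not independent. The 80 genes had a median difference L5 minus L4 of 0.16, with 47 higher and 33 lower, beside 0.01 for all genes. The day medians were 0.42, 0.21, -0.03 and -0.70, or -0.03 ± 0.487 (SD over 4 days), so the direction was not kept within days. The median over the genes was -0.29 in V1 alone and 0.31 in S1 alone. The share was higher in L5 by 0.134 percentage points over all cells and by 0.146 ± 0.0697 within days, with the higher mean in L5 on 4 of 4 days. These values pool the areas, whose mix differed: on day 3 the L4 cells were 2 of V1 and 6 of S1, the L5 cells 5 and 3. Within S1 the mean share was lower in L5 on day 3 (1.0% against 1.23%). On day 6 it was 0.858% against 1.02% in the only S1 L4 cell. Within V1 it was lower in L5 on day 4, at 1.8% against 1.98% in the only L4 cell. In the other pairs of area and day it was higher in L5. With all L4 cells, also those of days without L5 cells, the median gene difference was 0.677 and the share difference 0.315. The genes past the filter of the astrocyte list had a median difference of -1.13, those of the immediate early list one of -1.29 and those of the SOM interneuron list one of -0.99, and their part was not tested. The nuclear RNA list was lower in L5 on each of these days, and the residual share differed by -0.0692 percentage points over all cells and by -0.0456 ± 0.138 within days. The part of nuclear RNA in the layer difference was not tested.

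By complex, the median difference between layers was 0.30 for complex V, 0.23 for complex II, 0.21 for complex I, 0.11 for complex III and -0.07 for complex IV. Of the 80 genes, 4 were higher in L5 by at least 1, beside 10.9% of all genes, 0 were lower by as much, beside 10.8%, and 11 kept 1 sign on every day, beside 14.5%. None of these counts was above the share of all genes. The 4 genes higher by at least 1 were Sdhaf2 (1.96), Ndufs4 (1.17), Uqcrq (1.07) and Ndufv1 (1.05), named after their values were seen. Ndufs4, an accessory subunit of complex I whose loss causes a Leigh-like disease, was at a median of 79.48 CPM in L5 (0 to 866.0) and 42.27 in L4 (0 to 269.4), and was higher on each day, by 0.09 to 3.43. Uqcr10 was at 81.71 CPM in L5 (0 to 220.3) and 50.36 in L4, where 18 of 19 cells had a count, with days from 0.31 to 1.49. Ndufb8 differed by 0.88, but 5.22 on day 6 came from 2 L4 cells without a count. Sdhaf2, an assembly factor of complex II that helps attach FAD to Sdha, was counted in 22 of 33 L5 and 8 of 19 L4 cells and was lower in L5 by 3.21 on day 5.

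The genes lower in L5 on all 4 days were Ndufa6 (-0.95), Atp5g3 (-0.81), Ndufa11 (-0.54) and Ndufs3 (-0.42). For Ndufa6 the median CPM was not lower, at 98.6 in L5 and 89.09 in L4. All 19 L4 cells had counts of it and only 28 of the 33 L5 cells. Atp5g3 and Ndufa11 showed the same, with medians of 266.5 and 163.2 CPM in L5 and of 253.3 and 145.5 in L4.

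**Figure D4:**
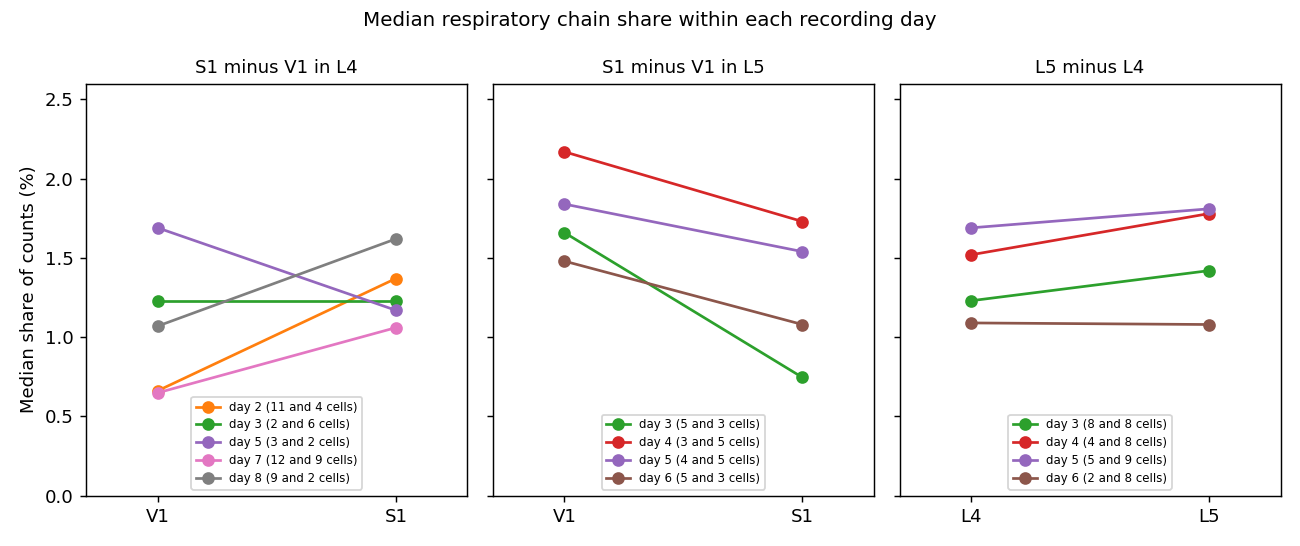
Median share of counts in the 94 genes, in percent, for the 2 groups of each comparison within recording days that held at least 2 cells of both. Each line is a day, with the number of cells of the left and the right group in the key. In L5 all 4 lines run down from V1 to S1, while in L4 they cross.

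From cell to cell, the share of the 94 genes went with the depth of the library and against nuclear RNA. All correlations are Spearman coefficients over cells that share libraries, total counts and days, given as descriptions. Over the kept cells the share correlated with the number of detected genes at 0.592 and with the log10 total count at 0.492. By group the first was 0.779 (V1) and 0.422 (S1) in L4, and -0.0123 (V1) and 0.765 (S1) in L5. Centred on group and day it was 0.588, and after thinning to 250000 reads, without the 3 shallower cells, 0.605. The correlation with the nuclear RNA list was -0.763 over all cells and -0.77 after centring, and by group, in the same order, -0.842, -0.761, -0.51 and -0.518. The 55 cells at or below the median of this list had a median share of 1.69% (0.654 to 2.72) and the 54 cells above it one of 0.717% (0.304 to 2.0). The 4 cells with the lowest nuclear list, at 386.0, 387.0, 485.3 and 1399.9 CPM, had shares of 1.759%, 2.16%, 2.171% and 2.716%. The last of them, in V1 L5, had the highest share of all and only 1978 detected genes. In each of the 13 within-day comparisons, 5 between areas in L4, 4 between areas in L5 and 4 between layers, the group with the higher mean share had the lower median of the nuclear list. The layer comparisons reuse cells of the area comparisons, so the 13 are not independent. On day 3 in L4 the difference of mean shares was only -0.00215 percentage points. By the median share, L5 was lower than L4 on day 6 (1.08% against 1.09%), opposite to the mean.

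**Figure D5:**
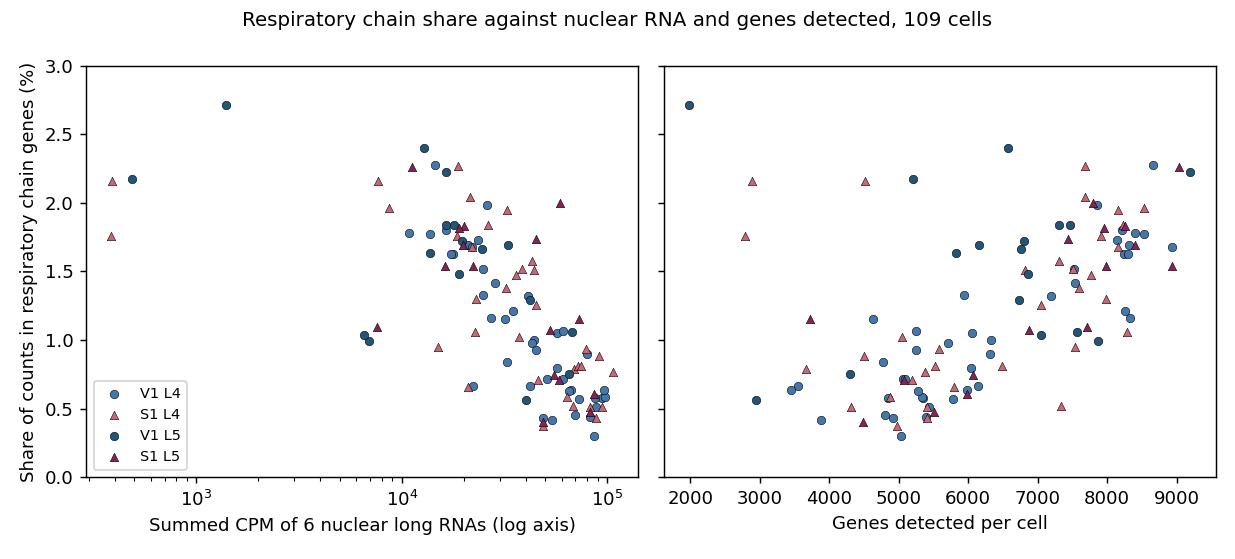
Share of counts in the 94 genes, in percent, against the summed CPM of 6 nuclear long RNAs (left, log axis) and against the number of detected genes (right) for the kept cells. Each point is a cell and colour and shape give the group. The share falls from left to right in the first panel (Spearman -0.763) and climbs in the second (0.592), with the cell of highest share, 2.716%, at the far left of the second.

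Each complex showed the same relation to nuclear RNA. The correlation of its share with the list was -0.773 for complex V, -0.702 for complex II, -0.695 for complex III, -0.649 for complex I and -0.549 for complex IV. Other groups of energy metabolism and translation genes went with the share, at 0.853 for 15 glycolysis genes, 0.778 for 16 genes of the tricarboxylic acid cycle and pyruvate dehydrogenase, and 0.664 for 81 cytosolic ribosomal protein genes. Ppargc1a, a coactivator known to drive mitochondrial biogenesis, was at 0.0717. The precursor ribosomal RNA gene Rn45s was at -0.482.

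Parvalbumin (Pvalb) marks the fast-spiking interneurons, which are known for many mitochondria, and some labelled cells had its reads. Pvalb was counted in 1 of 17 V1 and 7 of 16 S1 cells of L5, and in 10 of 42 V1 and 18 of 34 S1 cells of L4. Its level correlated with the share at 0.174 over all cells, 0.34 and 0.238 in L4 of V1 and S1, and -0.306 and 0.162 in L5. After thinning the value was 0.0925, and no relation can be read from it. By gene, the highest correlations with Pvalb in thinned cells were those of Uqcrc1 (0.217), Ndufaf1 (0.205) and Sdhd (0.199), and the lowest those of Ndufa7 (-0.193), Ndufaf7 (-0.176) and Uqcr11 (-0.125). By the share of each complex over all kept cells, without thinning, the values ran from 0.0927 for complex I to 0.254 for complex III.

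Within the thinned cells the genes went together. The median correlation over all pairs of the 80 genes was 0.36, with 98.4% of pairs above 0. For pairs of all genes past the filter the median was 0.0423, and for pairs of 52 ribosomal protein genes 0.217. Pairs within a complex had a median of 0.325 and pairs between complexes of 0.375. Complex IV pairs stood at 0.657, complex V at 0.394, complex III at 0.36, complex I at 0.307 and complex II at 0.234. Pairs with an assembly factor had a median of 0.196 and those without one 0.407. None of these sets was matched for level. The median of the mean RPKM was 126.4 for the general subunits, 23.96 for the assembly factors and 16.28 for all genes past the filter. The part of level in these differences was not tested. The genes most like the mean of the others were Cox4i1 (0.807), Cox5a (0.806) and Ndufa4 (0.799), all abundant subunits of complex IV, and the least like were Ndufaf6 (0.195), Atp5s (0.203) and Ndufaf4 (0.245).

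The spread over cells also differed between the genes. The SD of log2(CPM + 1) over the kept cells was smallest for Atp5a1 (1.32), Atp5d (1.59) and Cox8a (1.63), and largest for Sdhaf2 (3.44), Ndufv1 (3.23) and Uqcrfs1 (3.20). Ndufv1 had no count in 19 cells, and otherwise a median of 208.1 CPM or more in each group. Outside the rule, the genes most like the mean of the 80 over the thinned cells included Cfl1 (0.804), Sncb (0.798) and Pebp1 (0.798), and those least like were Malat1 (-0.573) and the long RNA gene Snhg11 (-0.552). The first 3 encode cofilin, beta-synuclein and a kinase inhibitor, which are abundant proteins of neurons. Among the 20 most like were also the ADP/ATP carrier gene Slc25a4 (0.784) and the ATP synthase inhibitor gene Atpif1 (0.744), and 0 of the 81 ribosomal protein genes.

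Genes that work beside the chain were taken from lists. Of 10 measured electron carriers and subunits named outside the rule, with cytochrome c (Cycs) among them, 10 passed the filter, and their median differences were 0.28 between areas in L4, 0.17 in L5 and 0.06 between layers. The 11 inner membrane carriers and porins were at 0.73, -0.15 and -0.25. Of 33 assembly factors named outside the rule, 32 were measured and 29 passed, at 0.01, 0.05 and 0.51. Of 16 measured genes of the tricarboxylic acid cycle and pyruvate dehydrogenase 15 passed, and these were at 0.41, -0.59 and 0.03, and Pdha1, a subunit of pyruvate dehydrogenase, ran from 1.56 in L4 to -2.20 in L5. Of 16 measured regulators of mitochondrial biogenesis 13 passed, and they were at -0.01, 0.20 and -0.22. Of these lists, the tricarboxylic acid genes were lower in S1 L5 as the respiratory chain genes were, and so were the ribosomal protein genes, at -0.44 over 52 genes.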

How the data were processed

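RNA of single cells was sequenced by Patch-seq. The authors aligned the reads to mm10 with STAR 2.4.2a and deposited read counts per gene and, from the same reads, RPKM values made with rpkmforgenes and RefSeq models. The program that counted the reads, and how reads with several matches were treated, are not given in the sources used here. Another deposited table, of cell labels and annotations, was not used.

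Counts of entries with the same symbol were summed (24490 entries, 23998 symbols), and Rn45s took 5.09% of the counts of kept cells. Levels are log2(CPM + 1), with a pseudocount of 1, and deposited RPKM values were used where genes are compared with each other. Cells were grouped by the area and layer in the labels, and dates in the labels were taken as 9 recording days in 2 series. By the number of mice in the paper, some days share animals, so the SD over days is not one over animals. A difference is that of mean log2(CPM + 1) over cells, beside the mean and SD of the differences within days with at least 2 cells of each group. Since each group is 1 sample, no p-value was computed, and called genes are those that differ by at least 1. Thinning drew 250000 reads per cell (seed 1). Doublets were not called, since each library came from 1 patched cell. No 2 cells had identical counts (0 pairs). The gene lists, the members and the naming rule were chosen with earlier results of these data known. Named are the 3 members of each complex with the highest mean RPKM, isoform pairs, core subunits, the 3 largest differences each way with the same sign on every day, the extremes of spread and correlation, and, of the 5 other genes most like the members, 3 (the rest are not reported here). Gene positions and pseudogenes came from GENCODE M21 (93 of 94 genes placed) and BLAST 2.17.0. Scaling alternatives used edgeR 4.0.16 in R 4.3.3, and the rest SciPy 1.17.1, pandas 2.3.3 and NumPy 2.4.6 in Python 3.11.15. The functions were tested on simulated counts. Alternatives were other scalings, pseudocounts, filters, cell sets and days.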

Additional observations from a re-analysis of the deposited data

Results flagged for a closer look

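Cox6a2, the heart and muscle form of a complex IV subunit, stood out in cells that no comparison uses. The 4 cells of S1 L4 that were left out for an Sst count of 0 all had counts of it, 7 in 1 of them and at least 48 in the others. In CPM their levels were 43.1, 141.2, 55.37 and 22.8, and together 69.7 (exact 95% Poisson interval 62.9 to 77.1, counting error only). Over the kept cells it was at 0.694 CPM (0.563 to 0.846), with counts in 7 cells and a highest value of 18.36 CPM, below each of the 4. Cox6a1 was at 194.3 CPM (182.8 to 206.3) in the 4 cells and at 102.05 (100.38 to 103.73) in the kept ones, so that the general form was the higher of the pair in both. The same 4 cells had 844, 601, 2662 and 29 counts of Pvalb, and their respiratory chain shares were 2.214%, 1.216%, 2.557% and 1.446%, above those of 33, 17, 34 and 20 of the 34 kept S1 L4 cells. Of the 7 kept cells with Cox6a2, 3 had no Pvalb count, and the kept cell with most Pvalb, 762 counts, had 4 counts of Cox6a2. The paper describes labelled cells without a SOM read that were fast-spiking and mapped to a Pvalb transcriptomic type. It takes them as likely basket cells, which are fast-spiking interneurons. Whether each of the 4 cells left out here is such a cell was not tested, and they need not all be of the same kind. The 4 cells share a group and no test between cells was made.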

How the results depend on the processing

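Each group is 1 sample, so the limit of every difference is the spread over 4 or 5 recording days, and depth limits the genes with few counts. Differences, shares and correlations kept their value within their spread in 180 alternatives, moved beyond it in 2 and reversed a difference at least as large as the spread in 2. For the correlations the spread was the SD of the coefficient over the 4 groups and not over days. This limit was wide: with detected genes the coefficients were 0.779 in V1 L4 and -0.0123 in V1 L5. Median differences smaller than the spread changed sign in further alternatives. With all L4 cells, also of days without L5 cells, the median difference between layers was 0.677 and the share difference 0.315 percentage points. With the share as its residual on the nuclear long RNA list, an alternative chosen after seeing the data, the share difference was 0.0125 between areas in L5 and -0.0692 between layers, both opposite in sign to the main values. The median difference between areas in L4 was -0.0135 in the first recording series and 0.259 in the second, and ran from -0.113 to 0.295 with each day left out, below 0 without day 2 (-0.0395) or day 7 (-0.113). In L5 it ran from -0.551 to -0.278, the latter without day 3, and the share difference from -0.384 to -0.195, the latter without day 3. Between layers these ranges were -0.138 (without day 3) to 0.305 and 0.0807 (without day 3) to 0.202. By gene, 3 values changed sign: Atp5g3 between areas in L5 with thinning (-0.384), Ndufa6 between layers with all L4 cells (0.185), and Uqcr11 between layers in V1 alone (-0.481), and 13 moved and 606 did not. For genes the limit was the SD over days, which was 0.266 for Ndufaf5 between areas in L5 but 3.7 for Sdhaf2 between layers. Where it was wide, a value could hardly leave it. Counts of genes that differ by at least 1 moved most. In L4 they ran from 0 to 12 up and 0 to 8 down, beside 4 and 0, in L5 from 0 to 7 and 2 to 24, beside 6 and 8, and between layers from 1 to 15 and 0 to 11, beside 4 and 0. TMM scaling gave 4 and 0, 6 and 6, and 4 and 0. No paired analysis was possible because replicate numbers only name cells and no result comes from a test; recording days, which both groups share, were used for the within-day differences.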
